A study of Macaca fascicularis with 605 samples.

Results

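The cytosolic ribosomal protein genes of cynomolgus monkey were followed through 605 single cells. Members were the genes of the expression table whose symbol is RPL, RPS, RPLP or RPSP followed by a number and at most a letter A, X or L and a further digit. The rule found 79 of 26018 genes. Of these, 72 are canonical genes, 43 of the large subunit (RPL, with the stalk proteins RPLP0, RPLP1 and RPLP2) and 29 of the small subunit (RPS). The other 7 are paralogues, which are described apart from their parent genes: RPL39L, RPL22L1, RPL7L1, RPL26L1, RPS27L, RPL10L and RPL3L.

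A ribosome holds 1 copy of most of these proteins, so cells make their messages together and at high levels. The messages carry a terminal oligopyrimidine tract at their start, through which growth signals set how much of them is translated. A few genes have a second, usually less active copy: RPL39L and RPL10L are known from the male germ line and RPL3L from muscle.

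The study sequenced the 3′ ends of amplified cDNA from single cells (SC3-seq), and the authors gave each gene in RPM, its reads scaled to a common total of reads in each cell, with 1 column for each cell. Cells of the embryo came from whole embryos before implantation (E06 with 24 cells, E07 with 30, E08 with 86 and E09 with 16) and from dissected fragments after it (E14 with 39, E17 with 56, E20 with 5, and E13 and E16 with 29.4% and 44.5% of the 384 cells). The pieces dissected held epiblast, amnion, hypoblast and yolk sac endoderm together, and the labels give embryo cells no type. Embryonic stem cells (ESCs) were of 3 lines. CMK6 (13 cells) and CMK9 (7 cells) grew in a conventional medium with LIF and bFGF on mouse feeders, and 656BTAG (8 cells) grew in AITS medium with bFGF and the inhibitor IWR1. Primordial germ cell-like cells (PGCLCs) were taken at day 8 from aggregates of ESCs given BMP4, SCF, EGF, LIF and Y27632, in a GMEM medium with KSR (GK15, 6 cells) or an Advanced RPMI medium with B27 (aRB27, 6 cells). They were sorted as BTAG positive and derive from the 656BTAG line; the reporters behind that name are not given in the sources used here. Gonadal germ cells had been picked by qPCR on their cDNA and were of E36 (5 cells), E43 (6), E50 (5) and E51 (7), with 1 cell each of E47 and E55. The labels name no animal, no further genotype and no culture of origin for a cell, so cells of a day may share an embryo.

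A unit below is the mean over the cells of 1 day, line or medium, and the 18 units of at least 5 cells fall into 5 classes (E06 to E09, E13 to E20, ESC, PGCLC and gonadal germ cells). Adjusted p-values are from limma with Benjamini-Hochberg adjustment over the 11476 genes tested, and "called" means an adjusted p under 0.05. Log2 differences are on the scale log2(unit mean RPM + 1), with their standard error. Since days, lines and media are not repeats of a condition, the p-values measure the spread between such units only. Of the members, 77 passed the filter on low values, and RPL10L and RPL3L did not. The 4 comparisons share units: ESCs enter 2 of them, and so do PGCLCs and gonadal germ cells.

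The labels were checked on markers. All 8 germ cell markers (SOX17, TFAP2C, PRDM1, NANOS3, KIT, DND1, DDX4 and DAZL) reached 10 RPM in each of the 4 gonadal units, 6 of 8 in both PGCLC units, where DDX4 was at 0, and 2 or 3 of 8 in the ESC lines. Summed over 7 gonadal somatic markers, the gonadal units held 61.5 to 397 RPM and the ESC and PGCLC units 3.37 to 36.6 RPM. The single E47 cell held 1623 RPM, with all 7 markers above 10 RPM. Read depth could be recovered for 530 cells and ran from 255085 to 9774620 reads, with a median of 2163873. One cell named CMK6 in its title is CMK9 in its description.

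Before implantation the members took a smaller part of a cell's reads than after it. Summed RPM averaged 177925 at E06, 165439 at E07, 172026 at E08 and 137079 at E09. It averaged 219572 at E13, 239997 at E14, 200219 at E16, 255649 at E17 and 261510 at E20. Every unit from E13 on was above every unit of E06 to E09. The class means were 163117 ± 18093 (SD, 4 units) and 235389 ± 25501 (SD, 5 units), a log2 ratio of 0.53. Single cells overlapped widely, from 69964 to 249855 before and from 81065 to 326475 after implantation.

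Among ESC lines, 656BTAG stood above CMK6 and CMK9, which overlapped. The 13 CMK6 cells ran from 155178 through a median of 169512 to 188801, and the 7 CMK9 cells from 159714 through 174585 to 183825. The 8 cells of 656BTAG ran from 198411 through 227218 to 253099, so no cell of this line fell within the range of the others. PGCLCs ran from 205160 through 248240 to 327818 in GK15 and from 189137 through 233169 to 292029 in aRB27, and these ranges overlap each other and that of 656BTAG.

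The highest sums of all units were in E36 gonadal germ cells, at 302005 ± 26647 (SD over 5 cells), or 30.4% of all RPM. The later gonadal units stood at 250220 (E43), 247868 (E50) and 238054 (E51), next to PGCLCs at 253347 and 240273. Their cells overlapped those of PGCLCs, and the order of these 5 units cannot be read beyond the spread of their cells. The single cells of E47 and E55 gave 160566 and 246635. The log2 ratio of the class means was 0.38 for PGCLCs over ESCs, 0.45 for gonadal germ cells over ESCs and 0.07 for gonadal germ cells over PGCLCs. The last turned to -0.01 without E36 and to -0.04 with the 2 single-cell days added. The number of genes above 0 RPM in a cell also differed between units. Its median was lowest at E36 (8030), then GK15 (8414.5), and stood at 10502 in CMK6, 10819 in CMK9 and 11234.5 at E43. Within units of 6 or more cells, its correlation with the sum ran from r = -0.85 (656BTAG) to 0.28 (CMK9). Its part in the order of the sums was not tested.

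**Figure D1:**
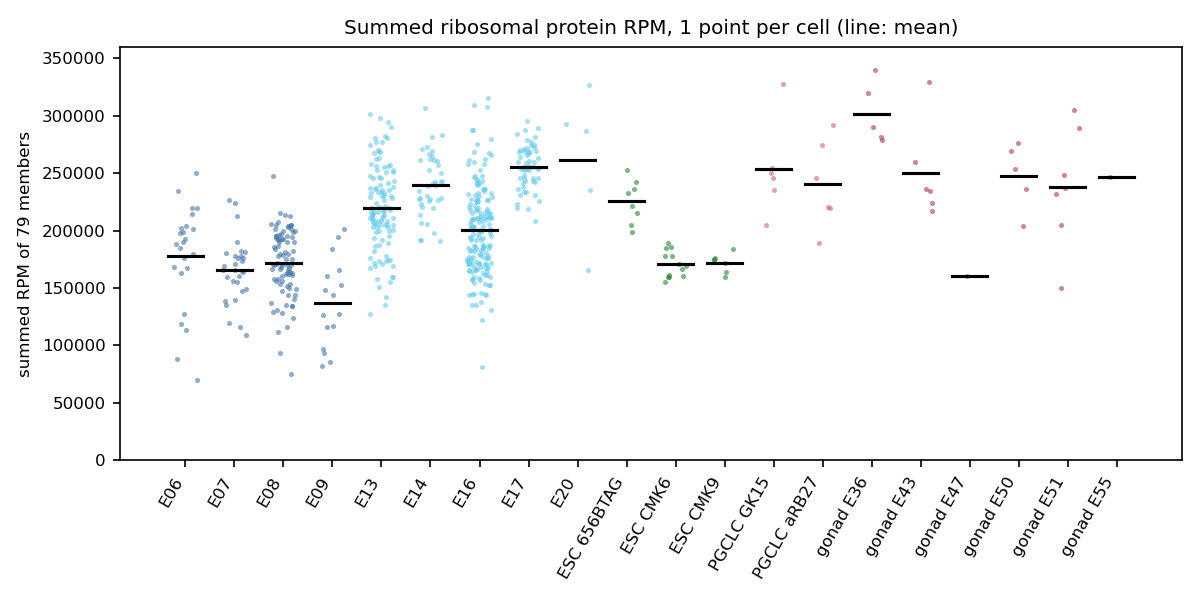
Summed RPM of the 79 members (vertical axis) for each of 605 cells (points) by day, ESC line, PGCLC medium or gonadal day, with the mean of each as a line. The unit means of E06 to E09 lie between 137079 and 177925, those of E13 to E20 between 200219 and 261510, and E36 gonadal cells are highest.

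The code in a cell's title (MS followed by a number, not explained in the labels) moved with the sum, so values within a code are given. At E06, 6 cells of code MS003 had a median sum of 115908 and 14 cells of MS099 one of 193814. At E16, 53 cells of MS101 had a median of 170711, and 12 cells of MS126 one of 255152. Within a code, the log2 ratio of E13 to E20 over E06 to E09 was 0.42 for MS126 (53 and 15 cells), 0.30 for MS133 (11 and 43 cells) and 0.12 for MS132 (54 and 13 cells), against 0.53 over all. Without MS003 and MS101 it was 0.50. All PGCLCs and all 656BTAG cells carry MS168, within which PGCLCs exceeded ESCs by a log2 ratio of 0.13. Within MS132, 4 gonadal cells exceeded 3 CMK6 cells by 0.55. Gonadal cells and PGCLCs share no code, so code and class cannot be told apart in that comparison.

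Both subunits rose and fell together from cell to cell. Across the cells of 1 unit, the sum of large-subunit members and that of small-subunit members correlated at r = 0.847 (CMK6) to 0.985 (E43), in units of 6 or more cells. Both sums share the cell's total reads, which links them. The ratio of the large-subunit to the small-subunit sum was lowest in E51 gonadal cells at 0.991 and highest in CMK6 ESCs at 1.29. Every one of the 72 canonical genes was above 0 RPM in all 605 cells.

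Levels of the canonical genes spanned a 22.2-fold range of means over the 18 units, on a scale that SC3-seq does not divide by gene length. The highest were RPS20 (10302 RPM), RPLP1 (9473 RPM), RPS12 (8450 RPM), RPS3A (6332 RPM) and RPS24 (6296 RPM). The lowest were RPL29 (465 RPM), RPS10 (693 RPM), RPL38 (1045 RPM), RPS9 (1079 RPM) and RPL23A (1100 RPM). Between its lowest and highest unit, a canonical gene varied by a median of 2.71-fold. RPL22 varied least at 1.72-fold. Among the 7 genes that varied more than 4-fold were RPL23A (7.28-fold), RPS27 (6.74-fold), RPL35 (5.04-fold), RPL29 (4.87-fold), RPS4X (4.68-fold) and RPL38 (4.35-fold).

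After implantation, canonical members were higher as a group of single genes. Of the 72, 38 were called higher at E13 to E20 than at E06 to E09, 25 of the large and 13 of the small subunit. The background was 11.5% of all genes called higher and 9.18% called lower. No canonical member was called lower by limma, nor at an unadjusted p under 0.05, nor by edgeR's quasi-likelihood test, which called 21 higher. The median log2 difference of the canonical members was 0.55, and that of all genes tested 0.00.

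RPL28, a large-subunit protein, had the greatest rise. Its units stood at 603, 548, 676 and 526 RPM from E06 to E09 and at 1358, 1384, 1024, 1808 and 1822 RPM from E13 to E20, with no overlap (log2 difference 1.304 ± 0.18, limma adjusted p = 3.42e-05). The acidic stalk protein RPLP1, part of the site where elongation factors bind, averaged 5521 ± 901 RPM before and 11518 ± 2353 RPM after implantation (1.05 ± 0.18, adjusted p = 2.82e-04). Its partner RPLP0, the base of the stalk, went from 3612 ± 439 to 7387 ± 1199 RPM (1.02 ± 0.17, adjusted p = 1.83e-04). Other members with large rises and no overlap were RPL12, RPL3, RPL29, RPL27A and RPL10A, with log2 differences from 0.97 to 1.08. Of these 8, RPL29 alone lost its call in any alternative, without E06 among others (adjusted p = 0.0513).

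The cells sampled differed between the stages, so epiblast-like cells were compared on their own. They came from 3 of 14 clusters of embryo cells made without the members, 41 cells at E07 to E09 and the rest of 150 at E13 to E17. No cluster held epiblast-like cells of both stages: the early cells were 1 cluster and the later cells the other 2 (52 and 57 cells), so cluster and stage cannot be told apart. In these cells 24 members were called higher, against 863 of all 11044 genes tested, and the log2 ratio of the sums was 0.45. All 39 members called over all cells (38 higher, and RPS27L lower) had the same direction within MS126 and MS133, and 38 of 39 within MS132. Cells of these codes also entered the calls, so this agreement is no independent check. Sizes within MS132 were smaller, with log2 differences of 0.47 for RPL28, 0.46 for RPLP1, 0.45 for RPL10A, 0.42 for RPL29, 0.35 for RPL12 and RPL27A, 0.29 for RPLP0 and 0.28 for RPL3. Within MS126 these 8 members lay between 0.60 (RPL29) and 1.19 (RPL28), and within MS133 between 0.58 (RPL29) and 0.88 (RPL28).

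Mitochondrial ribosomal proteins, which build the separate ribosome of the organelle, were more often called lower. None of 69 tested was called higher by limma (2 at an unadjusted p under 0.05, 0 by edgeR) and 18 (background 9.18%) were called lower, with a median log2 difference of -0.60. MRPS18C went from 250 ± 57.5 RPM to 84.1 ± 12.1 RPM (-1.54 ± 0.23, adjusted p = 9.74e-05). Of 51 ribosome biogenesis genes, 1 was called higher (FBL, the methyltransferase of ribosomal RNA, 0.65 ± 0.19) and 8 lower, among them SBDS, which helps release a joining block from new large subunits (-1.63 ± 0.45), and GAR1, a protein of pseudouridylation guides (-1.64 ± 0.45). Of 33 translation factors, 5 were called in each direction. The tRNA carrier EEF1A1 rose from 11399 ± 1398 to 18665 ± 1827 RPM (0.71 ± 0.13, adjusted p = 6.07e-04), and the poly(A)-binding protein PABPC1 fell from 1896 ± 290 to 1135 ± 117.5 RPM (-0.73 ± 0.18, adjusted p = 0.0069). Of 4 tested ribosomal proteins under other names, GNB2L1 alone was called (0.52 ± 0.13, adjusted p = 0.00922).

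**Figure D2:**
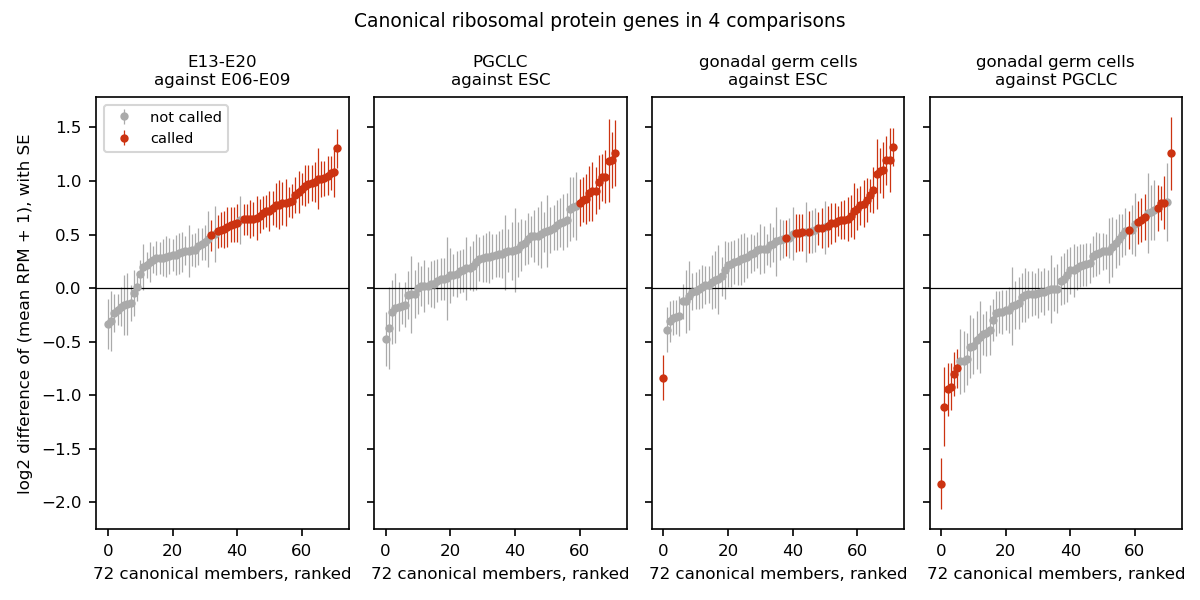
Log2 difference of each of the 72 canonical members with its standard error (vertical axis), ranked within each of the 4 comparisons. Red points passed an adjusted p of 0.05. Called members are 38 higher after implantation, 12 higher in PGCLCs than ESCs, 28 higher and 1 lower in the gonad than in ESCs, and 8 higher and 6 lower there than in PGCLCs.

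PGCLCs differed from ESCs in fewer members. Of the 72 canonical members, 12 were called higher, against 6.96% of all genes called higher and 10.9% called lower. None was called lower by limma or edgeR, nor at an unadjusted p under 0.05. The median log2 difference was 0.32 for canonical members and -0.18 for all genes. Without GK15 the count of all members fell to 3 higher and 3 lower, without aRB27 to 7 higher and 2 lower, and without 656BTAG it rose to 24 higher and 4 lower. Calls over all genes moved the same way, falling without either PGCLC unit and rising without 656BTAG from 2052 to 2180. With 1 PGCLC unit left, that unit is assumed to vary like the other classes.

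RPS7, a small-subunit protein that also binds MDM2, stood at 4085 RPM in 656BTAG, 1883 in CMK6 and 2098 in CMK9, and at 6401 and 5755 RPM in the PGCLC units (1.26 ± 0.31, adjusted p = 0.00738). RPL30 averaged 1871 ± 560 RPM in ESCs and 4198 ± 746 RPM in PGCLCs (1.19 ± 0.26, adjusted p = 0.00349). RPL26, which lies near the exit of the peptide tunnel, went from 1528 ± 328 to 3087 ± 75.97 RPM (1.03 ± 0.22, adjusted p = 0.00279) and kept its call in all 12 alternatives. The calls of RPS7 (adjusted p = 0.0667), RPL30 (0.0605), RPS18 (0.0642), RPL18 (0.0518), RPL23 (0.135), RPL11 (0.0927), RPS14 (0.149) and RPL7A (0.0776) were lost without GK15. The PGCLCs and 656BTAG cells of MS168 also entered the calls, so agreement in direction there is no independent check. Within MS168, 14 of the 15 called members kept their direction. Their sizes there were smaller, with 0.74 for RPL30, 0.70 for RPL26 and RPL23, 0.67 for RPS18, 0.57 for RPS7, 0.45 for RPL7A, 0.36 for RPL18, 0.34 for RPS14 and 0.28 for RPL11.

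Some members set the 3 units of MS168 apart from all others. RPS27 stood at 630 RPM in 656BTAG ESCs and at 1063 and 1112 RPM in the PGCLC units, with 1370 to 4248 RPM in the 15 other units. RPS21 stood at 1193, 1660 and 1711 RPM in these units, below CMK6 at 2286 RPM and CMK9 at 2773 RPM. RPL29, in contrast, reached 906, 937 and 864 RPM, with 630 RPM as the highest elsewhere, at E20. These units share a parent line as well as the code, and the part of either was not tested.

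Gonadal germ cells exceeded ESCs in many members. Of the 72 canonical members 28 were called higher, 14 of each subunit, and 1 was called lower. The background was 14% of all genes called higher and 14.1% called lower. The median log2 difference was 0.44 for canonical members and -0.03 for all genes. The count of all members called, 30 higher and 4 lower, fell to 18 and 3 without CMK6, to 17 and 2 without CMK9, and to 12 and 3 with edgeR. It was 37 and 4 without the 7 gonadal cells that held at least 2 gonadal somatic markers at 50 RPM. Calls over all genes also fell, from 3223 to 2472 without CMK6, 2459 without CMK9 and 2275 with edgeR. They were 3269 without those 7 cells.

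RPL7A, a large-subunit protein, was the canonical member with the greatest rise. It stood at 3186, 2087 and 2223 RPM in 656BTAG, CMK6 and CMK9, and at 7595 (E36), 4980 (E43), 6855 (E50) and 5427 RPM (E51) in the gonad (1.32 ± 0.18, adjusted p = 2.15e-05). RPS20 averaged 7888 ± 2800 RPM in ESCs and 16307 ± 1766 RPM in gonadal cells (1.10 ± 0.21, adjusted p = 6.24e-04), and lost its call with quantile normalization (0.24, adjusted p = 0.202). RPS28 (0.92 ± 0.22) and RPL5, a carrier of the 5S ribosomal RNA (0.77 ± 0.18), kept their calls in all 16 alternatives. RPS27 (1.20 ± 0.30) lost its call without 656BTAG (adjusted p = 0.0501). Within MS132 (4 gonadal and 3 CMK6 cells), RPS27 differed by 0.42, RPS29 by 0.29 and RPS28 by 0.59. RPS29 rose by 1.10 ± 0.26 and RPL37A by 0.74 ± 0.20, the latter not called without 656BTAG (adjusted p = 0.0573). RPS18 (0.64 ± 0.21) was not called without CMK6 (adjusted p = 0.0805), CMK9 (0.13) or E50 (0.0594).

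Between gonadal germ cells and PGCLCs the canonical members were called about as often as all genes. Of the 72, 8 (11.1%) were called higher (background 13.1%) and 6 (8.33%) lower (background 8.65%). The median log2 difference was -0.01, with 0.15 for all genes. The count over all members was 10 higher and 6 lower (20.8%), against 21.7% of all genes called in either direction. No pattern of the members is read from these counts. edgeR on recovered reads gave 2 higher and 8 lower, and no canonical member was higher by it. RPL15 averaged 2134 ± 215.3 RPM in PGCLCs and 3712 ± 393 RPM in the gonad (0.80 ± 0.16, adjusted p = 0.00159), and edgeR did not call it (adjusted p = 0.224). Of the others called higher, RPS27 (1.26 ± 0.34), RPS28, RPS6, RPLP0, RPL5 and RPL6 all lost their call without GK15. RPL27A kept its lower level in every alternative, at 1156 ± 286 RPM in the gonad and 2141 ± 44.8 RPM in PGCLCs (-0.92 ± 0.22, adjusted p = 0.00527). RPL29, RPL30, RPL18 and RPL27, with differences from -1.11 to -0.75, were not called without GK15. RPL29 was also not called without aRB27 (adjusted p = 0.103), E36 (0.053) or E51 (0.0828).

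The other lists are set beside the share of all genes called. Of 69 mitochondrial ribosomal proteins in the gonad, 25 were called lower (background 14.1%) and 3 higher (14%) than in ESCs (median -0.66). MRPL12 went from 226.7 ± 65.2 to 44.8 ± 11.5 RPM (-2.30 ± 0.41, adjusted p = 3.05e-04). Of 51 ribosome biogenesis genes 11 were called lower and 3 higher, and of 33 translation factors 6 in each direction. EIF5A, the hypusinated elongation factor, fell from 380 ± 145.3 to 88.8 ± 28.3 RPM (-2.06 ± 0.27, adjusted p = 1.88e-05). Against the same backgrounds, 6 of 33 translation factors in a direction is close to the share of all genes. PGCLCs against ESCs, where all genes also leaned lower (10.9% lower and 6.96% higher), gave 1 higher and 11 lower mitochondrial members, 1 higher and 10 lower biogenesis genes, and 5 lower translation factors. No translation factor was called higher by limma (3 at an unadjusted p under 0.05, 0 by edgeR). PABPC1 stood at 561 ± 40.1 RPM in PGCLCs, 1247 ± 108.2 RPM in ESCs and 1604 ± 589 RPM in the gonad. Of the ribosomal proteins under other names, GNB2L1 (0.67) was called higher in the gonad. The RRP9 gene of small nucleolar particles was at 19.3 ± 9.25 RPM in ESCs, 212.5 ± 95.3 RPM in PGCLCs and 60.9 ± 13.5 RPM in the gonad. Between gonadal cells and PGCLCs, 6 mitochondrial members were called higher and 5 lower. Biogenesis genes gave 8 and 5, and translation factors 6 and 4. The background there was 13.1% of all genes called higher and 8.65% called lower. No lean of these lists is read from such counts.

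Single members departed from their usual share of the summed RPM, the median share over the 18 units. At E06 to E09 the share of RPS19, a small-subunit protein mutated in Diamond-Blackfan anaemia, was above its median by 0.59 (log2), and shares of RPS10 and RPL23A by 0.55 and 0.52. RPL28, RPL12 and RPL3 were below theirs by 0.44, 0.40 and 0.37. In RPM, RPS19 stood at 3373, 3218, 2971 and 2188 from E06 to E09. From E13 to E20 it stood at 2581, 3098, 2060, 2677 and 2067 RPM, which overlaps the earlier days. The highest of these values was at E06 and the lowest were at E16 and E20. At E20, RPL35 stood at 609 RPM in 5 cells, with 1249 to 3067 RPM in the other units. RPS29 and RPS27 were high at E17, at 6467 and 4248 RPM.

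**Figure D3:**
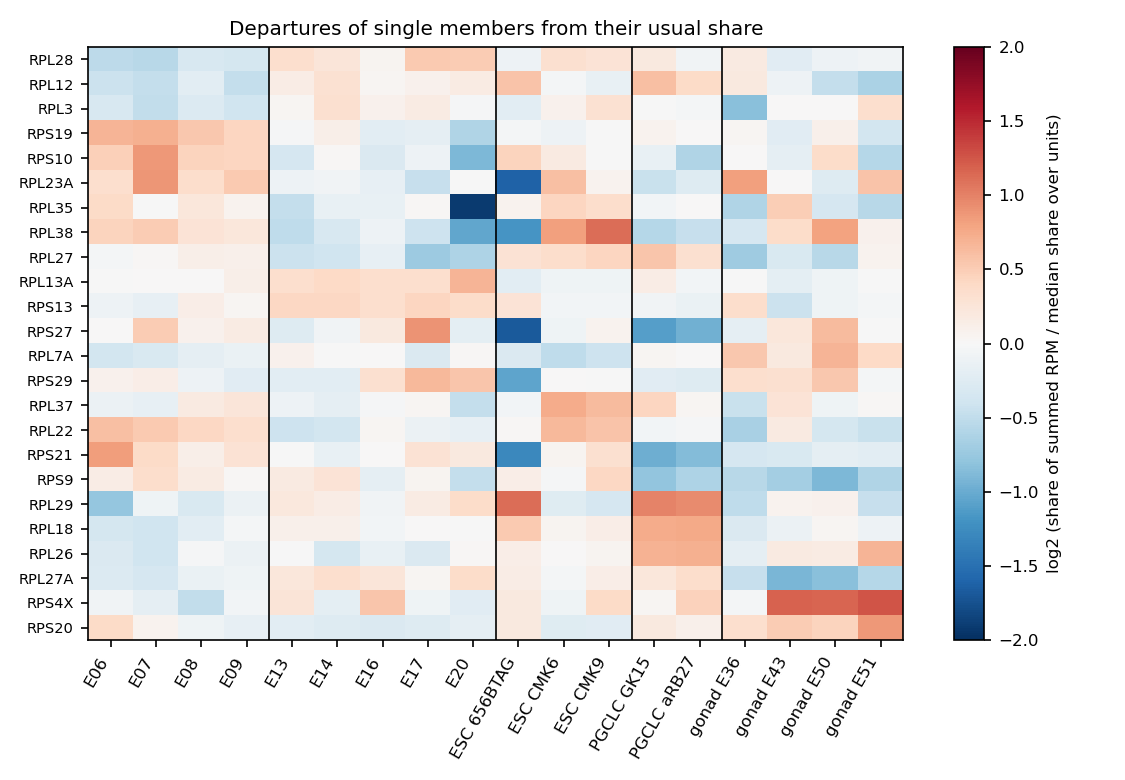
Log2 departure of the share of summed RPM from the median share over the 18 units (colour) for members with great departures in each class (rows), by unit (columns, black lines between classes). RPS27 and RPS21 are low and RPL29 high in 656BTAG ESCs and both PGCLC units, and RPS4X is high at gonadal E43, E50 and E51.

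In culture, 656BTAG ESCs held 3054 RPM of RPL7 beside 980 in CMK6 and 847 RPM in CMK9, but 343 RPM of RPL23A beside 1202 and 840 RPM. PGCLCs were above the median share for RPL29 (0.97), RPL18 (0.75) and RPL26 (0.70) and below it for RPS27 (-1.03), RPS21 (-0.92) and RPS9 (-0.70). Gonadal cells were above it for RPS4X (0.89), RPS20 (0.54) and RPL7A (0.45), and below it for RPL27A (-0.70) and RPS9 (-0.68).

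RPS4X, whose gene is on the X chromosome, separated gonadal cells by a letter in their titles. The labels give E36, E47 and E55 the letter m and E43, E50 and E51 the letter f, without saying what they stand for. No day holds both letters, so letter and day cannot be told apart. The 7 cells with m ran from 678 through a median of 1463 to 1644 RPM, and the 18 cells with f from 1840 through 2586 to 4874 RPM, with no overlap. The lowest of these, at 678 RPM, is the E47 cell, which held all 7 gonadal somatic markers above 10 RPM. RPL10, also X-linked, overlapped, with 1186 to 2413 RPM (median 1907) and 1681 to 6221 RPM (median 3324). So did X-linked RPL39, with medians of 1373 and 1687 RPM. The letter was seen to divide RPS4X in these data, so no test is given. Against ESCs (1245, 769 and 1074 RPM) RPS4X was called higher in the gonad (1.19 ± 0.23, adjusted p = 5.85e-04), a difference that was not called with the single cells of E47 and E55 added (adjusted p = 0.0663).

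**Figure D4:**
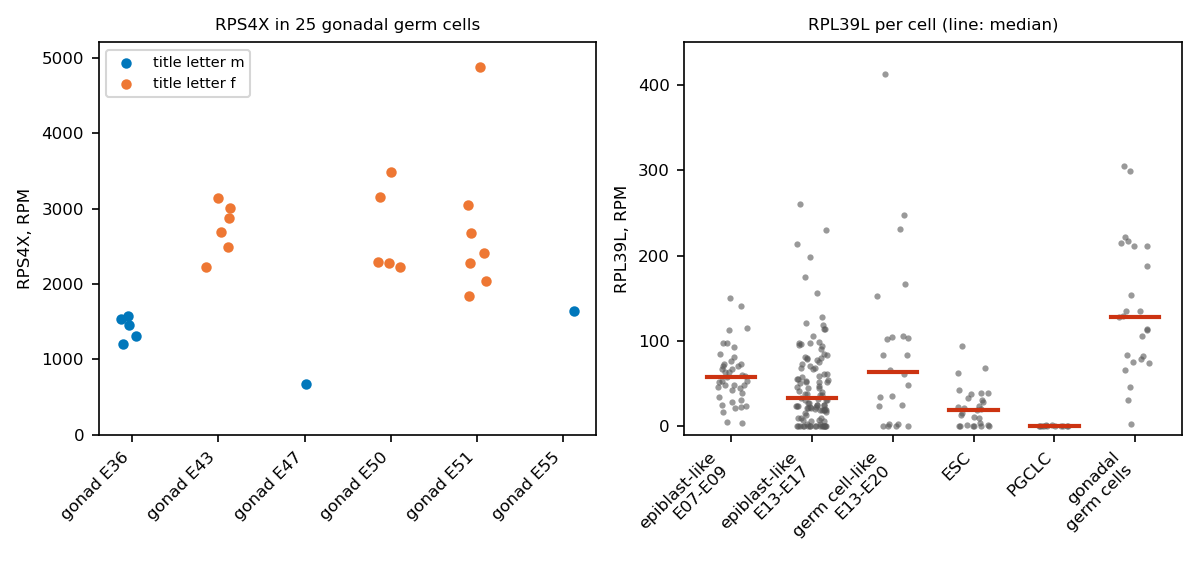
Left, RPS4X in RPM for 25 gonadal germ cells by day, coloured by the letter in their titles; all 18 cells with f (1840 RPM or more) lie above all 7 with m (1644 RPM or less). Right, RPL39L in RPM per cell with the median as a line; PGCLCs lie at or near 0 and gonadal germ cells have the highest median, 128.4 RPM.

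Paralogues made up a small part of the sums, between 0.184% and 1.20% of a unit's summed RPM. SC3-seq reads could be shared between a gene and near-identical copies, which the table does not show.

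RPL39L, the copy of the small tunnel protein RPL39 known from male germ cells, differed between ESCs, PGCLCs and the gonad. Embryo units stood at 29.7 to 54.8 RPM, with 30.6 at E06 and 41.7 RPM at E20. ESC lines stood at 15.1 (656BTAG), 30.6 (CMK6) and 17.6 RPM (CMK9). PGCLCs were at 0.278 (GK15) and 0.203 RPM (aRB27), and gonadal units at 151.1 (E36), 152.1 (E43), 97.7 (E50) and 140.5 RPM (E51). The 3 classes did not overlap.

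Of 12 PGCLCs, 3 had RPL39L above 0, and the highest held 1.22 RPM. Their recovered reads of RPL39L came to 6 of 24532234, or 0.245 RPM over the pooled reads (exact 95% Poisson interval 0.0898 to 0.532, for counting error only). Pooled ESCs gave 18.6 RPM (17.3 to 20.0) and pooled gonadal cells 148.3 RPM. The log2 difference was -4.09 ± 0.40 for PGCLCs from ESCs (adjusted p = 2.46e-06), 2.67 ± 0.34 for the gonad from ESCs (adjusted p = 9.77e-06) and 6.76 ± 0.38 for the gonad from PGCLCs (adjusted p = 5.81e-10). Values against PGCLCs depend on the pseudocount, and all 3 calls held in every alternative. Within MS168 the difference of PGCLCs from 656BTAG ESCs was -3.70, but the median cell of that line held 0.955 RPM.

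The parent RPL39 did not follow this order. It stood at 843 to 1486 RPM in ESCs, 1313 and 1263 RPM in PGCLCs and 1395 to 2424 RPM in the gonad. RPL39L was 10.1% of RPL39 at E36 and E51, 6.27% at E43 and 6.23% at E50, against 1.19% to 2.65% in ESCs and 4.15% or less in embryo units. Between E13 to E20 and E06 to E09 it was not called (0.26 ± 0.29, adjusted p = 0.588).

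RPL39L in germ cell-like embryo cells overlapped that in epiblast-like cells, and the order of their medians differed by day. The 24 germ cell-like cells of E13 to E20 ran from 0 through a median of 63.6 to 414 RPM, and the epiblast-like cells of E13 to E17 from 0 through 33.9 to 260 RPM. At E13 the means were 94.1 ± 148.4 and 72.3 ± 68.4 RPM (SD, 7 and 29 cells), but the medians 35.9 and 54 RPM, and 1 germ cell-like cell held 414 RPM. At E16 the means were 82.3 ± 84.9 and 42.2 ± 43.2 RPM and the medians 65.9 and 24.1 RPM (11 and 31 cells). These ranges overlap, and only 2 days held enough cells of both types, so no test was made. Epiblast-like cells of E07 to E09 had a median of 57.98 RPM.

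RPL26L1, which differs little from RPL26, was close to 0 in the units of MS168. It stood at 5.29 RPM in 656BTAG ESCs, 3.17 in GK15 and 1.09 RPM in aRB27 PGCLCs, with 63.7 RPM in CMK6, 75.99 RPM in CMK9, 77.8 to 213.2 RPM in embryo units and 67.8 to 190.8 RPM in the gonad. No MS168 unit overlapped any other. The parent RPL26 was not low in them, with 1905 RPM in 656BTAG and 3140 and 3033 RPM in the PGCLCs. The differences were -3.42 ± 0.71 for PGCLCs from ESCs (adjusted p = 0.00225), 2.02 ± 0.59 for the gonad from ESCs (adjusted p = 0.0148, or 0.127 without 656BTAG) and 5.43 ± 0.67 for the gonad from PGCLCs (adjusted p = 2.33e-05). Within MS168 the first was -1.01. What the line, its medium and the code each contribute was not tested.

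RPS27L was lower after implantation than before it, and its parent RPS27 was not. It stood at 571 (E06), 789 (E07), 514 (E08) and 377 RPM (E09), and at 107.4, 109.8, 121.3, 86.1 and 32.7 RPM from E13 to E20, with no overlap (-2.69 ± 0.35, adjusted p = 1.99e-05). RPS27 ran from 1370 to 2096 RPM before and from 1650 to 4248 RPM after implantation. RPS27L was thus 27.5% to 37.6% of RPS27 before and 1.59% to 6.51% after implantation. It was the 1 member called lower in this comparison, and was called in all 17 alternatives. In epiblast-like cells alone the difference was -2.06 (adjusted p = 2.31e-04). Within MS133 it was -1.65. At E07 to E09, RPS27L was at 688 ± 446 RPM in 36 trophectoderm-like cells, 579 ± 534 RPM in 49 cells like hypoblast or yolk sac endoderm and 422 ± 366 RPM in 41 epiblast-like cells (SD over cells), which overlap.

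Gonadal cells held less RPS27L than ESCs, and all ESC and PGCLC units lay above those of E13 to E20 (values with no test). ESCs held 305, 195 and 265 RPM, PGCLCs 172 and 190 RPM, and gonadal cells 90.6, 129.2, 74.1 and 38.4 RPM from E36 to E51. The gonad was lower than ESCs (-1.71 ± 0.40, adjusted p = 0.00329), and its difference from PGCLCs was -1.23 ± 0.46 (adjusted p = 0.0575, or 0.0294 without E43).

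RPL22L1, the copy of the RNA-binding protein RPL22, had lower unit means in PGCLCs and the gonad than in ESCs. ESC lines stood at 665, 429 and 600 RPM, PGCLCs at 298 (GK15) and 122.1 RPM (aRB27), and the gonad at 291, 186, 277 and 242 RPM from E36 to E51, with no overlap with ESCs. The differences were -1.54 ± 0.42 for PGCLCs (adjusted p = 0.014, or 0.223 without aRB27) and -1.18 ± 0.35 for the gonad (adjusted p = 0.0152, or 0.0642 without 656BTAG and 0.054 without CMK9). Neither difference was called by edgeR (adjusted p = 0.102 for PGCLCs and 0.0882 for the gonad) or by limma with no filter (0.0593 and 0.0604). The gonad also lost its call with quantile normalization (limma adjusted p = 0.0506). The calls held in 9 of 12 alternatives for PGCLCs and 11 of 16 for the gonad. RPL22 itself varied least of all canonical members. Among embryo days RPL22L1 peaked at E07 (704 RPM) and E14 (838 RPM) and was not called between the stages (0.45 ± 0.31, adjusted p = 0.333).

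RPL7L1, which takes part in making the large subunit, was 162.3 ± 37.6 RPM in the gonad and 284 ± 17.5 RPM in ESCs (-0.83 ± 0.28, adjusted p = 0.0309). It was no longer called without 656BTAG (adjusted p = 0.0605), CMK6 (0.0663), CMK9 (0.0949), E50 (0.0818) or E51 (0.0621). PGCLCs held 301 (GK15) and 130 RPM (aRB27). It was not called between the stages of the embryo (-0.54 ± 0.25, adjusted p = 0.132).

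RPL10L and RPL3L were nearly silent. RPL10L was at 0 to 3.99 RPM in all 18 units, with its highest mean at E43, where 3 of 6 cells were above 0, and 24.1 RPM in the single E55 cell. RPL3L was at 0.536 RPM or less in every unit and at 0 in every ESC, PGCLC and gonadal cell. Their parents RPL10 and RPL3 were at 1694 to 3984 and 729 to 2122 RPM.

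**Figure D5:**
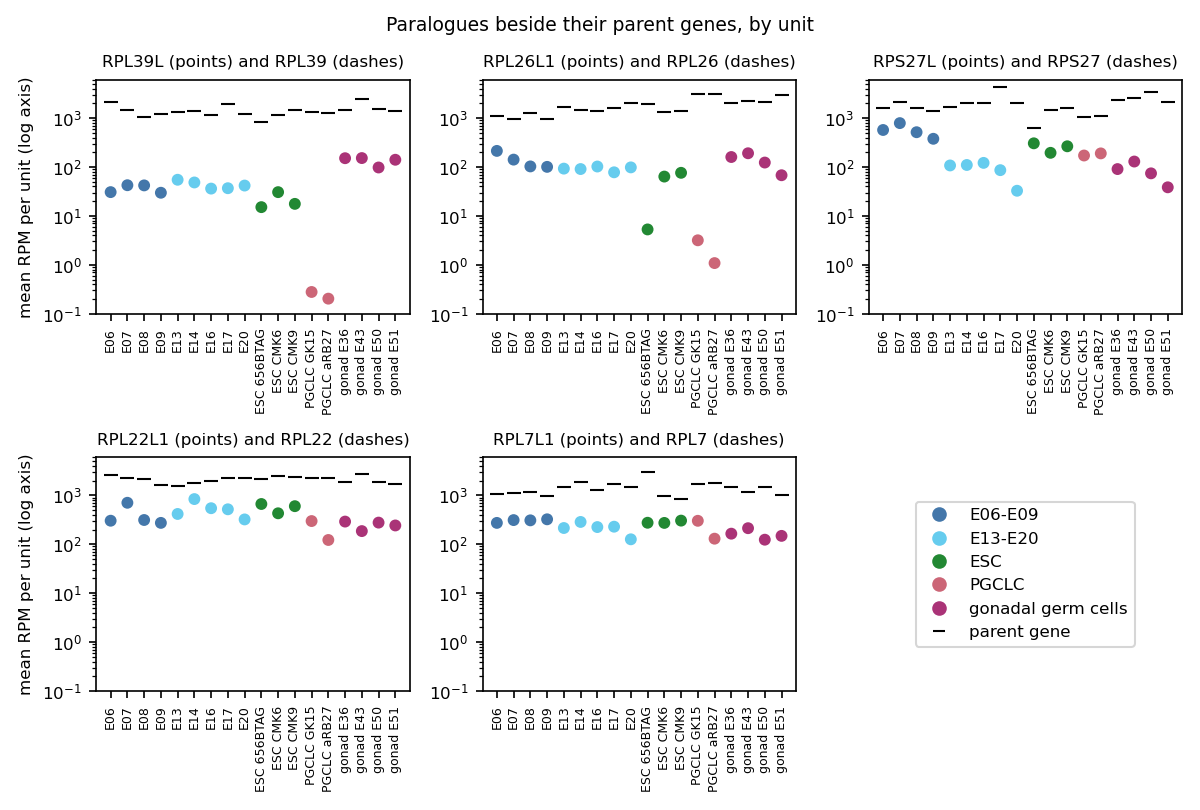
Mean RPM of 5 paralogues (points, log axis) and of their parent genes (dashes) in each of the 18 units, coloured by class. RPL39L is lowest in PGCLCs (0.278 and 0.203 RPM) and highest in the gonad, RPL26L1 is at 5.29 RPM or less in 656BTAG ESCs and both PGCLC units, and RPS27L is at or below 121.3 RPM from E13 to E20.

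Germ cell-like cells of the embryo were set beside epiblast-like cells of the same day for the members named in the gonad. RPL7A was at 6082 ± 762 RPM in germ cell-like and 3789 ± 607 RPM in epiblast-like cells of E13, and at 4086 ± 849 and 3573 ± 904 RPM at E16. RPS4X was at 1484 ± 439 and 992 ± 287 RPM, and at 2067 ± 647 and 1421 ± 555 RPM. Of the 10 canonical members named as higher in the gonad than in ESCs, 6 were higher in germ cell-like cells on both days. Of the 8 named as higher than in PGCLCs, 4 were, among them RPL6 with 4298 and 4288 RPM at E13. The 1 member called lower in the gonad than in ESCs was lower on both days. Of the 6 called lower than in PGCLCs, 1 was. RPL30 (log2 differences 0.63 and 0.52) and RPL18 (0.34 and 0.21) were instead higher in germ cell-like cells on both days. No share of all genes stands beside these counts, so no lean is read from them. The sums were 250037 ± 45014 and 243022 ± 29606 RPM at E13, and 243215 ± 53643 and 224845 ± 24122 RPM at E16, within the spread of the cells.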

How the data were processed

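The deposited table held RPM by the authors for 26018 genes, read here by column title. The tools listed in the submitters' processing notes are TopHat 1.4.1, Cufflinks 2.2.0 and cutadapt 1.3. Their genome build is not given in the sources used here. In 530 columns, 99.74% of the authors' RPM values above 0 were whole reads within 0.1 read. Unit means were tested with limma 3.58.1 (R 4.3.3) as log2(mean RPM + 1), with 1 fit over 18 units and 5 classes, keeping genes with 2 or more units at 10 RPM or above. The fit was tested on simulated data. edgeR 4.0.16 on recovered reads summed per unit was added after seeing the data; it called 1585, 1287, 2275 and 1604 genes in the 4 comparisons, against 2371, 2052, 3223 and 2496 by limma. The summed RPM is a description with no test.

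Embryo cells were clustered (scanpy 1.11.5, Leiden, 1500 variable genes other than members, 20 components, 10 neighbours, resolution 1). A cluster was named "-like" at a marker score of at least 0.5, a lead of 0.2 and 3 detected markers, limits set after seeing the clusters. These are not the authors' types. Doublets were not called. A few members are counted but not reported here by name. Members and lists were chosen with earlier results of these data known. Canonical members were named where called with units that did not overlap, up to 10 for each direction, with the 5 highest and lowest levels, the greatest departures in share and all paralogues. From the other lists up to 3 called genes for each direction could be named, and members outside these rules that vary over 4-fold were chosen after their values were seen. RPL17, RPS15 and RPL36A are in the table under LOC names outside the symbol rule and were added to the sums as an alternative. Of the 79 members, 77 matched the RefSeq gene table by identifier and symbol, and RPS15A and RPL41, which did not, are uncertain. Alternatives were another pseudocount, no filter, means of log2 values, quantile normalization, another RPM denominator, single-cell days, single title codes, epiblast-like cells, 1 cell of unclear line and each unit left out.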

Additional observations from a re-analysis of the deposited data

Results flagged for a closer look

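For 34 quantities in each of 3 classes of 4 or 5 units, a unit stood apart from the others of its class 8 times by Dixon's 95% limit. Chance flags about 1 in 20 such sets.

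At E06 to E09, E07 was high for RPL22L1 (704 RPM, next 313 RPM), and E08 was high for RPL15 (2268 RPM, next 1934 RPM). At E13 to E20, E17 was high for RPS27 (4248 RPM, next 2057 RPM).

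In the gonad, E36 was high for RPL23 (6196 RPM, next 3450 RPM), RPS7 (6351 RPM, next 3905 RPM) and RPL28 (1684 RPM, next 1140 RPM), and low for RPS4X (1418 RPM, next 2687 RPM). E36 is the 1 gonadal unit of at least 5 cells with the title letter m, and all its cells carry title code MS117. E51 was high for RPL26 (2931 RPM, next 2182 RPM).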

How the results depend on the processing

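Of 1033 values of 65 gene results under alternatives, 913 kept their direction and, where tested, their side of the threshold. A further 110 lost their call, 1 gained it and 9 changed sign, all 9 in paralogues and none of them called. Values within 1 title code had no test and were compared by direction only. RPL39L between the embryo stages went to -0.10 with means of log2 values, -0.18 in epiblast-like cells and -0.56 within MS126. RPL22L1 there went to -0.073 in epiblast-like cells and -0.17 within MS126, and RPL26L1 to 0.091 within MS133. With 1 unit left out, RPL7L1 ran from -1.12 (without GK15) to 0.088 (without aRB27) for PGCLCs against ESCs. For the gonad against PGCLCs it ran from -0.92 (without aRB27) to 0.29 (without GK15), and RPL22L1 from -0.28 (without aRB27) to 1.00 (without GK15). The cause was not tested.

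Counts of members called, 39, 15, 34 and 16 in the 4 comparisons (embryo stages, PGCLC against ESC, gonad against ESC, gonad against PGCLC), moved as follows. edgeR gave 22, 13, 15 and 10. The first was 25 in epiblast-like cells, where 1693 of 11044 genes were called. With no filter, which tests more genes, the third was 19 and the fourth 9. The third was 21 with single-cell days. With 1 unit left out, counts ran from 32 to 39, 6 to 28, 19 to 34 and 5 to 19. The log2 ratio of sums within 1 title code was 0.12 (MS132) and 0.30 (MS133) for the first and 0.13 (MS168) for the second. With 1 unit left out it ran from 0.45 to 0.58, 0.31 to 0.53, 0.37 to 0.60 and -0.01 to 0.11.

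Leaving the members out of the RPM denominator moved the median of all genes by 0.13 in the first comparison (from 0.00 to 0.14) and from -0.03 to 0.07 in the third; quantile normalization moved it from -0.18 to -0.04 in the second and from 0.15 to 0.01 in the fourth. Cells could not be paired between groups, because replicate numbers name cells only. A fit with title code as a block was not run; values within codes stand in the report. Limits are 2 to 5 units for each class, 5 to 8 cells in most culture and gonadal units, and title codes that partly follow the classes.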
